A study of Mus musculus with 12 samples.

Results

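The 30 genes described here encode the machinery of intraflagellar transport (IFT) and the BBSome. They are the genes whose array feature has a single symbol that begins with Ift or Bbs and a number, or with Ttc21, Wdr19, Wdr35, Traf3ip1, Cluap1 or Dync2. Of 45 such features, the brightest over the 12 arrays was taken for each gene, and all 30 passed the filter on low values, among 14197 genes tested. Affymetrix 3' expression arrays were run on RNA of mouse germ cells and germ-cell-like cells in 4 groups of 3 arrays, which the labels call biological replicates. Male primordial germ cells (PGC), the embryonic precursors of sperm, came from BDF1 genital ridge at E12.5 (embryonic day). Round spermatids (RS), the haploid cells that follow meiosis, came from BDF1 testis at 3 weeks. PGC-like cells (PGCLC) at day 6 and spermatid-like cells (SLC) were both differentiated in vitro. All cells were collected by FACS, and among the sample titles only those of PGC give a sex. The gate and the strain and cell line of the cultured cells are not given in the sources used here, and neither is the age of the SLC culture.

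IFT moves cargo along the microtubules of a growing cilium or flagellum. IFT-B trains are carried outward by kinesin-2, and IFT-A takes part in the return trip driven by cytoplasmic dynein-2. The BBSome is an adaptor that rides these trains and carries membrane proteins out of the cilium, and chaperonin-like proteins assemble it. Round spermatids begin to build the sperm tail, and mice with impaired Ift88, or without BBSome subunits, form few or malformed sperm flagella.

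The values are the intensities deposited by the authors. The labels do not state a scaling, and the mean of each array after trimming 2% of its values at each end lay between 500.002 and 500.004 units. Array medians lay between 73.2 and 107 units, values under the floor of 30.7 were set to it, and the number of arrays limits the precision. Among markers of the labelled types, 11 of 11 measured round spermatid genes rose from PGC to RS and 11 of 11 from PGCLC to SLC, and 9 of 10 PGC markers fell in each case. Of 17 measured testis somatic markers, 15 were higher in SLC than in RS. Their summed intensity ran from 3243 to 3925 on the RS arrays and from 97543 to 98077 on the SLC arrays, and 1 of the 17 lay at or under the floor on all RS arrays and 0 on all SLC arrays. Cyp11a1, a Leydig cell enzyme of steroid synthesis, gave 4.01, 14.3 and 8.57 on the RS arrays, against 4305, 4002 and 4039 on the SLC arrays. The summed signal of 14 fetal gonad somatic markers was 4751 to 5828 in PGC and 5267 to 13609 in PGCLC. Some genes, Col1a1 and Pdgfra among them, are in both somatic lists, so the counts of these lists are not independent.

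Most IFT and BBSome genes were far brighter in round spermatids than in PGCs. In RS minus PGC, 22 of 30 rose and 0 fell, where a call needs an adjusted p under 0.05 in limma and a change of at least 2-fold. Over all genes tested, 31.8% rose and 37.7% fell by the same rule. The members' median difference was 1.78 on the log2 scale, against -0.23 over all genes. In the cultured cells, 18 rose and 0 fell from PGCLC to SLC, beside 29.9% higher and 27.4% lower over all genes. Their median difference was 1.23, against -0.07 over all genes. Markers of other cells moved with stage as well. From PGC to RS, 3 of 17 testis somatic markers rose and 8 fell, and 2 of 14 fetal gonad somatic markers rose and 8 fell. From PGCLC to SLC, 10 of the 17 rose and 2 fell, and 5 of the 14 rose and 1 fell. The log2 ratio of the Gapdh control's 3' to 5' features was -0.43 to -0.36 in PGC against -0.01 to 0.20 in RS, and -0.37 to -0.29 in PGCLC against -0.56 to -0.43 in SLC. Each of these had a two-sided exact permutation p = 0.1, the smallest that 3 against 3 arrays allow. The same ratio of the Actb control overlapped between stages in both settings. The part of these values in the rise was not tested. In bulk RNA, fewer cells of a type and less RNA per cell cannot be told apart.

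**Figure D1:**
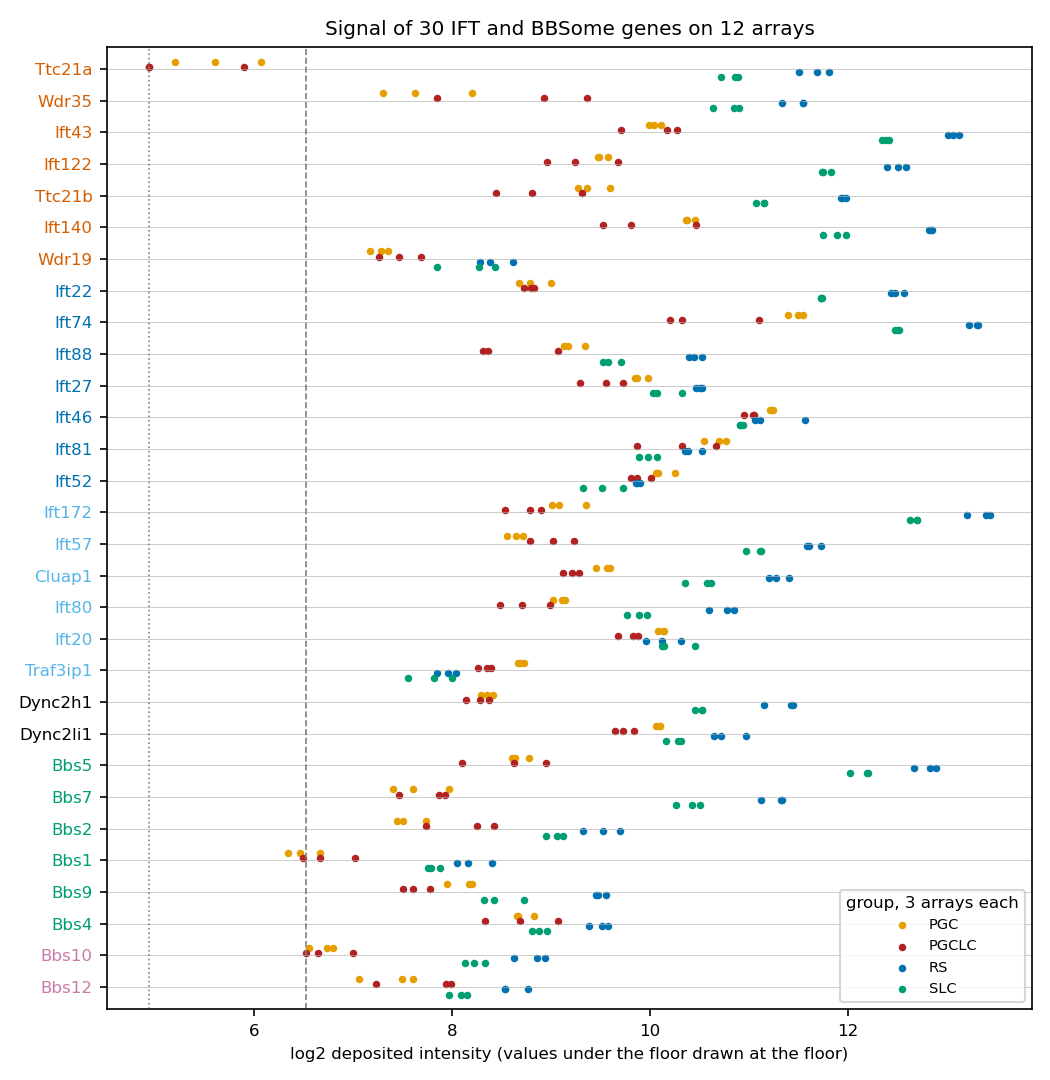
Deposited intensity of the 30 genes on a log2 axis, 1 point per array and a colour per group, with gene names coloured by complex (IFT-A, IFT-B core, IFT-B peripheral, dynein-2, BBSome, chaperonin-like); the dotted line is the floor of 30.7 units and the dashed line the filter level of 92.0. RS and SLC points lie to the right for most genes, with Traf3ip1, Ift52, Ift81 and Ift46 as exceptions. For Ift20 the RS points overlap the PGC points, while the SLC points lie to the right of the PGCLC points. For Bbs4 and Bbs12 the SLC points overlap the PGCLC points.

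IFT-A rose as a whole in vivo. All 7 of its genes were called in RS minus PGC, and 6 of 7 in SLC minus PGCLC, where Wdr19 (IFT144, a core subunit) changed by 0.71 and was not called. Ttc21a, a paralog of the IFT-A subunit gene Ttc21b, had the largest difference of the 30 in RS minus PGC. It was at 36.9, 48.6 and 67.1 in PGC, at 14.2, 6.13 and 59.5 in PGCLC, at 2917, 3307 and 3582 in RS, against 1681, 1863 and 1901 in SLC. Both early groups lay near the floor, and no early array came near the late ones. The RS minus PGC difference was 6.04 ± 0.27 (SE, limma, adjusted p = 7.78e-10), a 65.9-fold rise, and SLC was at least 47.3-fold above PGCLC, since 2 PGCLC arrays lay under the floor.

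Ttc21b itself rose by 2.54 and 2.27 in the same comparisons. The core subunits Ift122 and Ift140 rose by 2.98 and 2.44 in RS, and Ift43, a peripheral subunit, by 3.02. Wdr35 (IFT121, a peripheral subunit) was at 158, 198 and 295 in PGC and at 2999, 2577 and 2987 in RS. In culture it was at 658, 230 and 488 in PGCLC and at 1598, 1846 and 1910 in SLC. PGCLC replicates 1 and 3 were above every PGC array and replicate 2 was within the PGC range, and all late arrays were higher than all early ones. Its rise was 3.76 ± 0.33 in vivo and 2.08 ± 0.33 in vitro (SE).

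IFT-B was divided. In its core, Ift22 (a Rab-like small GTPase), Ift74 and Ift88 rose in both settings, 3 of 7 genes, by 3.67, 1.80 and 1.24 in RS. Ift22 was at 513, 443 and 411 in PGC, at 5545, 6072 and 5697 in RS, at 444, 424 and 456 in PGCLC and at 3386, 3398 and 3413 in SLC. The call for Ift88 in SLC minus PGCLC was close to the 2-fold line at 1.02, and it was lost without PGCLC replicate 1 (0.91), PGCLC replicate 3 (0.88) or SLC replicate 1 (0.97). Ift27, Ift46, Ift52 and Ift81 were not called in either setting. Of these, Ift27 was higher by 0.60 in RS and 0.62 in SLC, short of the 2-fold line (limma, adjusted p = 0.000696 and 0.000715). Its early and late arrays did not overlap in either setting. Ift74 and Ift81 encode partners in a tubulin-binding module, and on their brightest features Ift74 rose while Ift81 was not called. Ift74 averaged 2863 ± 147 in PGC and 9957 ± 344 in RS, and Ift81 1635 ± 128 and 1375 ± 84.2 (SD, n = 3 arrays each). The dimmer feature of Ift81 differed by 0.56, the sign of Ift74, so the contrast in sign rests on 1 of its 2 features.

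In the peripheral part of IFT-B, 4 of 6 genes rose in both settings. Ift172, its largest subunit, was at 541, 653 and 514 in PGC, at 9461, 11086 and 10787 in RS, at 372, 476 and 441 in PGCLC and at 6649, 6326 and 6637 in SLC. The rise was 4.20 ± 0.12 in RS (SE, limma, adjusted p = 1.11e-11) and 3.93 ± 0.12 in SLC. Ift57, Cluap1 (IFT38) and Ift80 rose by 3.00, 1.76 and 1.65 in RS. A second feature for Ift80 differed by 0.23 in RS minus PGC and -0.11 in SLC minus PGCLC, so the Ift80 rise was seen on its brighter feature.

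Ift20, a subunit that also lies at the Golgi apparatus, differed by 0.01 in RS minus PGC. Its PGC arrays read 1132, 1126 and 1085, and its RS arrays 994, 1117 and 1271, with overlap. In SLC minus PGCLC it differed by 0.45 (limma, adjusted p = 0.00581), under the 2-fold line. Its PGCLC arrays read 911, 940 and 817 and its SLC arrays 1132, 1406 and 1111, without overlap. The change in culture less that in the animal was 0.44 and was not called (limma, adjusted p = 0.0560).

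Only 3 of the 30 genes had a lower mean signal in RS than in PGC, all of IFT-B, and none of them passed the 2-fold line. Traf3ip1 (IFT54) was at 408, 413 and 425 in PGC and at 249, 263 and 230 in RS. It was at 327, 307 and 338 in PGCLC and at 257, 226 and 189 in SLC. Early and late arrays did not overlap in either setting, and the RS minus PGC difference was -0.75 ± 0.14 (SE, limma, adjusted p = 0.000414).

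Ift52 was at 1225, 1066 and 1087 in PGC, at 957, 933 and 931 in RS, at 1036, 895 and 936 in PGCLC and at 641, 732 and 851 in SLC, a difference of -0.26 ± 0.12 in vivo (limma, adjusted p = 0.0620). Ift81 was at 1494, 1667 and 1744 in PGC, at 1471, 1340 and 1314 in RS, at 933, 1631 and 1282 in PGCLC and at 1009, 952 and 1078 in SLC. Its difference in vivo was -0.25 ± 0.17 (limma, adjusted p = 0.185), and its second feature had the opposite sign, as given above.

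Of the dynein-2 genes, the heavy chain Dync2h1 rose and the light intermediate chain Dync2li1 was not called. Dync2h1 was at 327, 342 and 315 in PGC and at 2275, 2754 and 2783 in RS, a rise of 2.98, and by 2.24 in SLC. Dync2li1 differed by 0.69 and 0.52.

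In the BBSome, 5 of 6 subunit genes rose in RS and 3 of 6 in SLC. Bbs5 was at 390, 398 and 438 in PGC, at 6517, 7617 and 7264 in RS, at 495, 275 and 395 in PGCLC and at 4163, 4694 and 4723 in SLC. The groups of each stage did not overlap with the other stage, and the rise was 4.12 ± 0.17 in RS (SE, limma, adjusted p = 4.16e-10) and 3.58 ± 0.17 in SLC. Bbs7 rose by 3.60 and 2.65, Bbs1 by 1.72 and 1.08. The Bbs1 call in culture was lost without PGCLC replicate 3, where the difference was 0.97. Bbs2 and Bbs9 rose by 1.95 and 1.39 in RS, and differed by 0.90 and 0.87 in SLC minus PGCLC without being called. Without PGCLC replicate 1 Bbs2 was called there, at 1.05. Bbs4 differed by 0.78 and 0.18, and its 4 features shared the positive sign. Of the chaperonin-like genes, Bbs10 rose by 2.11 and 1.504. Bbs12 rose by 1.22 in RS and differed by 0.35 in culture.

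The partner genes that the symbols leave out did not all follow. Of 13 measured partners, 7 rose and 3 fell from PGC to RS, and 6 rose and 0 fell from PGCLC to SLC, with median differences of 1.35 and 0.04. The 3 that fell in vivo were Ttc8 (BBS8, a BBSome subunit), Mkks (BBS6, a chaperonin-like assembly factor) and Tulp3, an adaptor that links IFT-A to membrane receptors. Ttc8 was at 499, 533 and 490 in PGC and at 187, 161 and 172 in RS, and Mkks at 1405, 1299 and 1330 against 142, 206 and 208. Ttc8 thus fell where 5 of the 6 BBSome genes above rose, and Mkks where Bbs10 and Bbs12 rose. Bbip1, the small BBSome subunit, rose by 2.82. Ttc30a2, a member of the IFT70 family of IFT-B, was at 23.5, 2.15 and 13.4 in PGC, all under the floor, and at 10556, 8949 and 9237 in RS, at least 311-fold higher. Ttc30a1 differed by 0.14. These paralogs are alike in sequence, and their features may share signal.

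Among 13 motor genes outside the symbol rule, 7 rose and 2 fell from PGC to RS, with a median difference of 1.38. A pair of dynein light chain paralogs moved in opposite directions. Dynlrb1 was at 3327, 3077 and 3068 in PGC and at 357, 382 and 370 in RS. Dynlrb2 was at 42.8, 79.9 and 70.4 in PGC and at 8960, 10322 and 10022 in RS. The kinesin-2 genes Kif17, Kif3b and Kif3a rose by 6.47, 4.14 and 1.38, while Kif3c differed by -0.14. Dynlt3, a further dynein light chain, was the other gene that fell, at -2.76 in RS minus PGC. In these gene groups Ttc8, Bbip1, Ttc30a1, Ttc30a2, Dynlrb2 and the kinesins were named after their values were seen.

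The factors known to switch on ciliary genes rose too. Of 7 measured, 6 rose in RS and 5 in SLC. Rfx2, an X-box binding factor needed for spermatid maturation, was at 231, 165 and 165 in PGC, at 4057, 4824 and 4748 in RS, at 593, 207 and 468 in PGCLC and at 2402, 2232 and 2254 in SLC. Foxj1, a master factor of motile cilia, was at 36.0, 2.72 and 47.1 in PGC and at 2105, 2323 and 2310 in RS. Of 24 motile axoneme genes, which build the beating core of the flagellum, 22 rose in RS and 22 in SLC.

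Since RFX factors bind the X-box, promoter sequences of the members were read from RefSeq (build GRCm38.p6, from 250 bases before to 50 after the start), and 26 of 30 genes had an entry. An X-box was counted where the sites GTNNCC and GGNNAC stood 1 to 3 bases apart, on either strand. It was present in 6 of 26 member promoters (23.1%) and in 3.49% of 32851 promoters of the same length. Each member had 1 promoter, while the 32851 were neither reduced to 1 per gene nor limited to the genes tested. The shorter RFX site GTTGCC, which overlaps the X-box in some promoters, was present in 46.2% against 12.51%, and the site TGACGT of CREB family factors in 15.4% against 7.51%. Of the 20 genes that rose in RS and had an entry, 5 held an X-box, as did 1 of the other 6, Bbs4. The X-boxes of Bbs1 and Bbs4 lie after the start, as GTTGCCAAGGCGAC and GTCGCCCGGGAAAC. The 4 promoters with an X-box before the start are shown. All 4 genes rose in RS, by 3.60 (Bbs7), 1.16 (Wdr19), 3.67 (Ift22) and 3.00 (Ift57). Each sequence is on the gene's own strand with the X-box in capitals. They lie at chr3:36613467-36613540 (Bbs7, minus strand), chr5:65199632-65199695 (Wdr19, plus), chr5:136908057-136908149 (Ift22, plus) and chr16:49699177-49699276 (Ift57, plus).
Bbs7: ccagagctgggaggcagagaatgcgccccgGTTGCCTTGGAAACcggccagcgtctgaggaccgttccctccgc
Wdr19: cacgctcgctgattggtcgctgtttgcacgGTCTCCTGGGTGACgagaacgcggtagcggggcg
Ift22: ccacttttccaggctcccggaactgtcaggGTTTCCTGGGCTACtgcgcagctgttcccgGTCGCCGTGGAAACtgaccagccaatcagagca
Ift57: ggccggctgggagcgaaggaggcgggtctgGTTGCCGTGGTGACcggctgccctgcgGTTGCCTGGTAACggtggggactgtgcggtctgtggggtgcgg
Ift22 and Ift57 each carry 2 X-boxes. RefSeq's gene span for Bbs7 begins within the stretch shown, upstream of the start used for its window. These letters describe the window and were not measured for binding.

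Genes with a larger change in vivo also had a larger change in vitro. Between the 2 stage changes Pearson's r was 0.967 and Spearman's rho 0.964 across the 30 genes, given as a description. Genes are no independent replicates, and the 2 changes share no arrays. All 18 genes that rose in culture were among the 22 that rose in vivo. The change was smaller in culture for 26 of 30. Over all genes, the change in culture less that in vivo was negative for 7310 of 14197. The overlap of rises, r and rho were not computed over all genes, so they are not shown to be particular to these 30. Wdr19, Bbs12, Bbs9 and Bbs2 were called in vivo and not in culture.

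**Figure D2:**
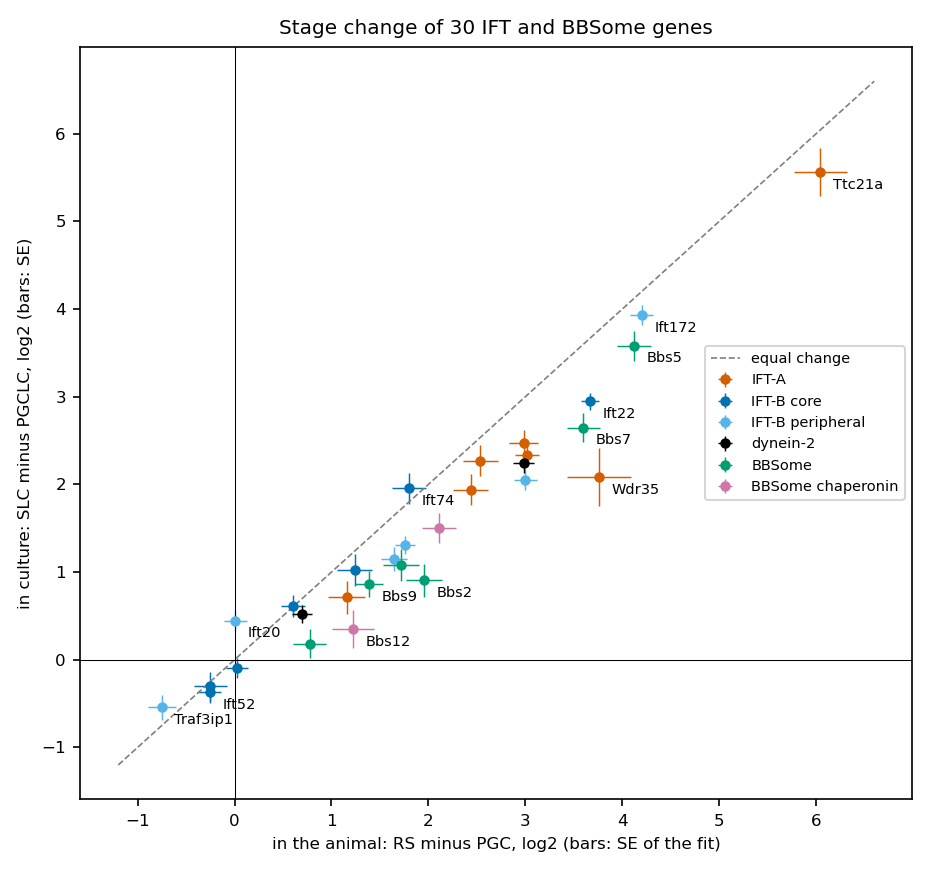
Stage change of each gene in the animal (RS minus PGC, horizontal) against that in culture (SLC minus PGCLC, vertical), both log2 with the SE of the fit as bars and colours by complex. Most points lie below the dashed line of equal change, Wdr35 and Bbs2 among the farthest from it at -1.68 and -1.05.

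The difference between the 2 stage changes was tested as an interaction. It was called negative, meaning a smaller change in culture, for 2 of 30 genes, Wdr35 and Bbs2, beside 11.2% of all genes. No member was called positive, beside 21.1%. At an adjusted p under 0.05 alone, 10 of 30 were negative, beside 22% of all genes. The members' share was below that of all genes by the first rule and above it by the second. The members' median was -0.50, against -0.04 over all genes.

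For Wdr35 the interaction was -1.68 ± 0.46 (SE, limma, adjusted p = 0.0115), and it was called under all 23 alternative settings. Its PGCLC signal was above its PGC signal on 2 of 3 arrays, as given above, and its SLC arrays were all below its RS arrays. Bbs2 was at 213, 182 and 174 in PGC, at 345, 213 and 306 in PGCLC, at 639, 735 and 831 in RS, against 536, 557 and 493 in SLC. The same order held: PGCLC replicates 1 and 3 were the highest early arrays, and every SLC array was below every RS array. Its interaction was -1.05 ± 0.26 (limma, adjusted p = 0.00692). It fell short of the 2-fold line without PGC replicate 3 (-0.99), PGCLC replicate 1 (-0.90), PGCLC replicate 3 (-0.99), RS replicate 3 (-0.95) or SLC replicate 3 (-0.998).

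Spermatid-like cells had a lower signal than round spermatids for nearly all of these genes, mostly by less than 2-fold. Mean signal in SLC was 50.1% to 107.9% of that in RS, with a median of 63.0%. The members' median difference was -0.66, against -0.15 over all genes tested. At an adjusted p under 0.05 alone, 24 of 30 were lower in SLC, beside 31.8% of all genes. For 27 of 30, all SLC arrays lay below all RS arrays, as they did for 40.4% of all genes. With the 2-fold line, 1 of 30, Bbs9, fell in SLC, a share near the 3.44% of all genes, and 0 rose, beside 24.0%. By limma 25 of 30 had an unadjusted p under 0.05, beside 9569 of all 14197 genes.

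Bbs9, a BBSome subunit, gave 756, 703 and 714 on the RS arrays, against 322, 343 and 424 on the SLC arrays. It was at 289, 247 and 296 in PGC and at 182, 219 and 194 in PGCLC. Its SLC arrays were thus between its early arrays and its RS arrays, with no overlap. The difference was -1.01 ± 0.15 (SE, limma, adjusted p = 0.000118, and 1.38e-05 to 0.000929 over 25 alternatives). The call lay on the 2-fold line and was lost without RS replicate 1 (-0.98), SLC replicate 1 (-0.93) or SLC replicate 2 (-0.97).

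Ift140 came next. Its RS arrays read 7222, 7346 and 7403 and its SLC arrays 4038, 3810 and 3440, a difference of -0.96, and it was called without SLC replicate 1, at -1.02. The values of Ift80, Bbs7, Ift88, Ttc21a, Dync2h1 and Ttc21b were between -0.87 and -0.83. Wdr19, Traf3ip1 and Ift20 had overlapping RS and SLC arrays, with differences of -0.25, -0.15 and 0.11.

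**Figure D3:**
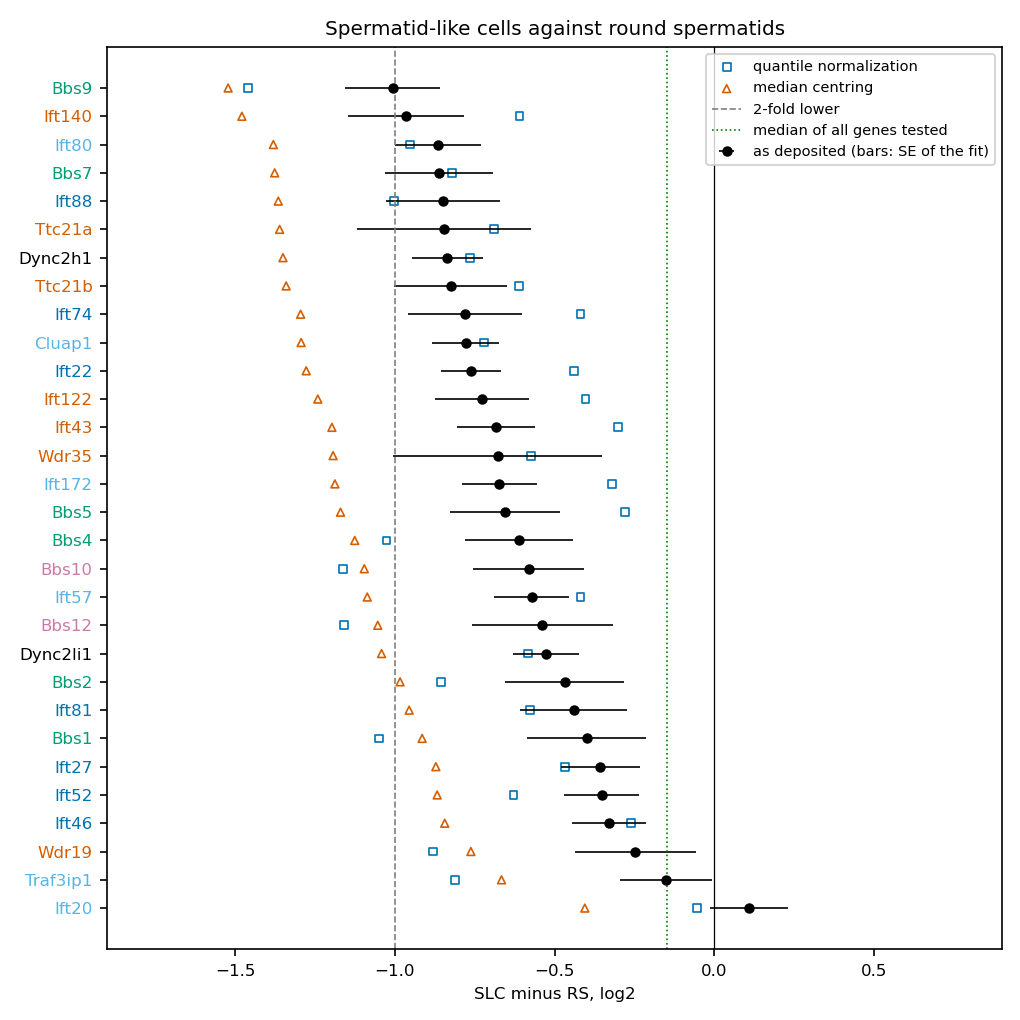
SLC minus RS on the log2 scale for each gene as deposited (black, with the SE of the fit), after quantile normalization (squares) and after centring each array on its median (triangles); the dashed line marks 2-fold lower and the dotted line the median of all genes, -0.15. As deposited 29 of 30 points are below 0, and under the other 2 scalings all 30 are.

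How many genes pass the 2-fold line depends on the scaling of the arrays. With each array centred on its median, the all-gene median went from -0.15 to -0.66 and the members' median from -0.66 to -1.18, and 21 of 30 were then called lower. Quantile normalization put the all-gene median at -0.31 and the members' to -0.62, and 6 were called. The sign of Ift20 turned negative under both.

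Several values moved with this comparison. Testis somatic markers were higher in SLC, as given above, with Cyp11a1 and Col1a1, a collagen gene that rose by 6.34, farthest apart. Of 14 fetal gonad somatic markers 10 rose, Col1a1 among them and Pdgfra, a receptor of mesenchymal cells, by 6.27 (with 1 RS array under the floor). Both of these genes are in the testis somatic list too. The part of somatic cells in the members' lower signal was not tested. Of 10 PGC markers Prdm1 rose (2.35) and Pou5f1 fell (-1.16), and the median was -0.50. Of 11 round spermatid markers, Acr fell (-1.32), Spaca1 differed by -0.66 without being called, and their median difference was -0.53. Of 24 motile axoneme genes, Dnah2 (-1.12) and Dnah9 (-1.04), both dynein heavy chains, fell, and the median was -0.79, near that of the IFT and BBSome genes. Of the ciliogenesis factors, Foxj1 fell (-1.09) and Rfx2 differed by -0.98. The 3' features of the Gapdh control over its 5' features gave a log2 ratio of -0.01 to 0.20 in RS and -0.56 to -0.43 in SLC (two-sided exact permutation p = 0.1, the smallest that 3 against 3 arrays allow). The Actb control gave 0.46 to 0.49 in RS and 0.33 to 0.60 in SLC (two-sided exact permutation p = 1.0), and the part of either was not tested.

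Some related genes were higher in SLC, and the gene lists differed in this. Among the partners 2 of 13 rose, Tulp3 (2.14) and Mkks (1.27), both of which fell from PGC to RS. Among the motors 3 of 13 rose, Dynlt3 (4.35), Dynlrb1 (2.25) and Kif3c (1.52). Dynlt3 read 182, 125 and 112 on the RS arrays, against 3100, 2644 and 2608 on the SLC arrays. Of 18 transition zone genes, which gate the cilium's base, 16 had a negative difference, and the median was -0.59. Only Cc2d2a rose (1.71, with 2 RS arrays under the floor), and Tctn2 differed by -0.99. Of 15 ciliary membrane and Hedgehog signalling genes 8 rose, led by the receptors Smo (2.88, with 1 RS array under the floor) and Ptch1 (2.34). These rose where the testis somatic markers rose, and the part of such cells was not tested.

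PGCLC differed little from PGC in these genes. By the 2-fold rule 0 of 30 were called, beside 12% of all genes in either direction. By limma 16 of 30 had an unadjusted p under 0.05, beside 6114 of all 14197 genes. At an adjusted p under 0.05 alone, 8 were lower, beside 13.4% of all genes, and 3 were higher (Wdr35, Bbs2 and Ift57), beside 16.7%. Those counts turned on single arrays, on the scaling of the arrays and on the variance shared with the late groups. They were 2 and 0 without PGC replicate 1, 3 and 0 without PGC replicate 2, 2 and 1 without PGC replicate 3, 1 and 0 without PGCLC replicate 1 or 3, and 13 and 3 without PGCLC replicate 2. With an RS or SLC array left out 6 to 7 were lower and 0 to 2 higher, and with only the 6 arrays compared the counts were 0 and 0. Median centring gave 16 lower and 0 higher, and quantile normalization 11 and 0, with 26 of 30 differences negative under either. Array weights gave 16 and 8, which are approximate. The members' median was -0.23, against 0.01 over all genes.

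The PGCLC arrays spread more than the others. The members' median SD between arrays on the log2 scale was 0.25 in PGCLC, against 0.10 in PGC, 0.11 in RS and 0.09 in SLC. PGCLC replicate 2 was the array nearest to the PGC mean for 19 of 30 genes, replicate 3 for 8 and replicate 1 for 3. Ift74 was at 1180, 2203 and 1281 in PGCLC and at 2702, 2896 and 2992 in PGC, and Ift140 was at 737, 1412 and 898 against 1320, 1332 and 1405. In both, replicate 2 stood apart from the other PGCLC arrays on the side of the PGCs. Marker genes also differed between the PGCLC arrays. The summed signal of 10 PGC markers was 30197, 62833 and 49015 on PGCLC replicates 1, 2 and 3, against 68967 to 72979 on the PGC arrays. That of fetal gonad somatic markers was 5267, 13609 and 8305, against 4751 to 5828 in PGC. That of testis somatic markers was 25439, 30520 and 27070, against 17220 to 19281. That of ciliogenesis factors was 2973, 5908 and 4103, against 6243 to 6492. By sum, replicate 2 was the highest of the 3 in each list. It was thus nearest to PGC for PGC markers and ciliogenesis factors, and farthest from PGC for both somatic lists. By median log2 signal, ciliogenesis factors were lowest on replicate 2 (8.87, 7.70 and 8.89 on replicates 1, 2 and 3). The part of these values in the split was not tested. Without replicate 2, Ift74 (-1.22) and Wdr35 (1.43) were called in PGCLC minus PGC, and without PGC replicate 3 Wdr35 was called, at 1.24. The spread of the PGCLC arrays also enters the error of every other comparison, since each gene had 1 variance over the 4 groups. Without the PGCLC arrays the counts were 22 in RS minus PGC and 1 in SLC minus RS.

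**Figure D4:**
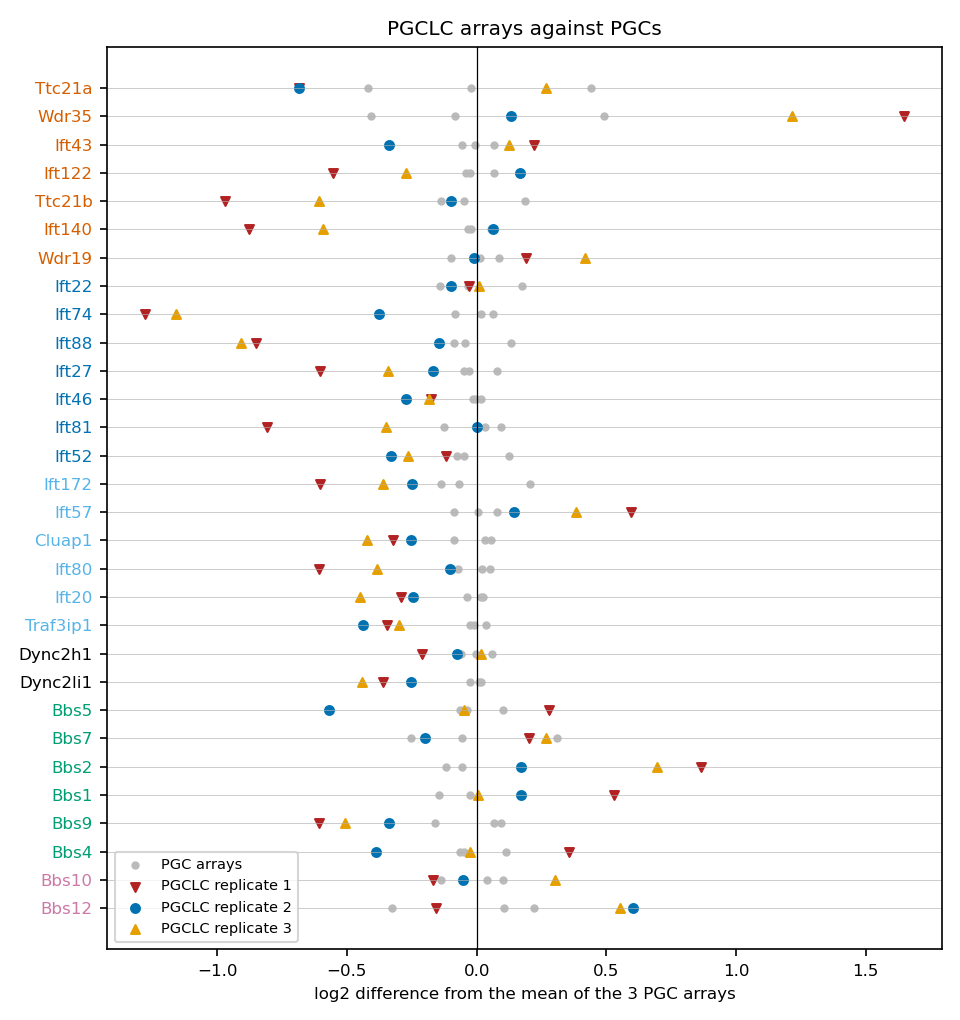
Log2 difference of each PGCLC array (coloured markers by replicate) and each PGC array (grey) from the mean of the 3 PGC arrays, for the 30 genes in the order of the plot of signal by array, with values under the floor drawn at the floor. PGCLC replicate 2 lies nearest to 0 for 19 genes, and Ift74, Ift140, Wdr35 and Bbs2 show replicates 1 and 3 away from it.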

How the data were processed

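The values deposited by the authors are linear intensities, 1 for each probe set. MAS5 is the only tool in the submitters' processing notes, with no version. Detection calls and scan dates were not used here. Of 45101 probe sets, 64 controls, 932 with several gene symbols and 9160 with none were left out. The probe set with the highest mean over 12 arrays stood for each gene if it exceeded 92.0 units, the median of the table, on at least 3 arrays. Values were floored at 30.7 units, the 25th percentile, and log2 transformed. A single limma 3.58.1 fit (R 4.3.3; lmFit, eBayes with intensity trend) on all 12 arrays had 4 group means, and p was adjusted by Benjamini and Hochberg over 14197 genes. A call needs an adjusted p under 0.05 and 2-fold. "Rose" and "fell" mean called. Folds come from differences of mean log2. The fit was tested on simulated data.

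Groups come from the sample titles. The labels do not say whether the replicates came from separate animals or cultures, so p-values measure the spread between these samples. The members and gene lists were chosen with earlier results of these data known. All members are named. Values on every array are given for members called in SLC minus RS, PGCLC minus PGC or the interaction, for the 4 largest rises and the falls in RS minus PGC, and for some others to show the levels. From each gene list the 2 genes that differed most between SLC and RS were named. Some genes of the lists are not reported here. Alternatives were other floors, filters, scalings, probe set rules and variance models, a replicate block, and each array left out.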

Additional observations from a re-analysis of the deposited data

Results flagged for a closer look

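Wdr35 and Bbs2 had a stage change that differed between the animal and the culture by the interaction term in limma. For Wdr35 the change in culture less that in the animal was -1.68 on the log2 scale, from rises of 2.08 and 3.76. For Bbs2 it was -1.05, from changes of 0.90 and 1.95. In both, the PGCLC mean was above the PGC mean and the SLC mean below the RS mean. A second feature for Wdr35 rose by 1.64 in culture and 3.40 in the animal.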

How the results depend on the processing

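The count of genes that rose in RS was 21 to 23 and in SLC 16 to 19 under all alternatives run. The count lower in SLC than in RS was 1, and became 21 with median centring, 6 with quantile normalization and 0 with array weights, and 0 to 1 with an array left out. Centring moves all genes of an array alike. The count in PGCLC minus PGC was 0, and became 2 with array weights (Ift74 and Wdr35) and 1 with median centring (Ift74), and 0 to 2 with an array left out. The interaction count of 2 became 5 with array weights and 5 with median centring, and 1 to 4 with an array left out. The cause of these shifts was not tested. In limma the estimate of the array weights stopped before it converged, so counts with array weights are approximate. Same-numbered arrays had deviations that correlated at -0.02 to 0.13, highest for RS 1 with SLC 1. RS and SLC arrays of different numbers correlated at -0.11 to 0.05. With 3 arrays in a group these values cannot exclude that the numbers pair the arrays. With the replicate block the counts were 22 in RS minus PGC, 18 in SLC minus PGCLC and 1 in SLC minus RS. They were 0 in PGCLC minus PGC and 2 in the interaction, all the same as without it. With the mean of its probe sets Ift80 lost both stage calls (0.94 and 0.52). No call changed sign. The interaction has no value for the 6 arrays alone or without the PGCLC arrays. Signals near the floor, as for Ttc21a in PGCLC, have no order.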
